A study of Mus musculus with 6 samples.

Results

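Peripheral myelin protein genes were measured in 6 primary cultures of mouse dorsal root ganglia. The 8 genes were Mbp, Pmp22, Pmp2, Mag, Prx, Mal, Cnp and Cldn19, chosen by name from the 45703 genes of the deposited count table, and all 8 were found there once. All cultures belonged to 1 group: wild-type C57BL/6 animals, adult at 4 to 6 weeks, with dissociated ganglion cells held for 7 days on poly-L-lysine in 10% serum with EGF and FGF at 10 ng/ml. The labels call them biological replicates, and each library came from 2 dishes of mixed cells. They do not say how many animals gave a culture, so the spread and the p-values below describe differences between these cultures, which may in part be technical. There was no untreated, fresh or myelinating group, so no level below is set against intact nerve.

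Myelin is the stack of glial membrane wrapped around axons, and in peripheral nerve it is made by Schwann cells. Its compact part is held together by proteins such as myelin basic protein and peripheral myelin protein 22, while its edges, channels and outer surface carry other proteins, among them myelin-associated glycoprotein, claudins and periaxin. Schwann cells switch these genes on when they contact large axons and lower them after injury or when axons are lost. Satellite glia, which wrap neuron cell bodies in the ganglion, express some of the same genes.

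The labelled tissue was checked against marker genes. The 6 glial lineage markers, among them Sox10 and Erbb3, summed to 2296 to 3330 CPM (a gene's count relative to its library total, in the usual scaling), the 8 neuron markers to 989 to 2148 CPM and the 6 fibroblast markers to 3338 to 13967 CPM. Library totals lay between 20070639 and 22968642 counts and TMM scaling factors, which adjust for library composition, between 0.976 and 1.02. Markers of oligodendrocytes, the myelinating glia of the brain and spinal cord that also use Mbp, Mag, Mal and Cnp, were at or near 0. Mog, Mobp and Opalin each had at most 1 count in any library, Hapln2 at most 3, Olig2 at most 5 and Ermn at most 7. In libraries of mixed cells, fewer glia and less RNA per glial cell cannot be told apart.

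The 8 genes covered a wide range of levels. Per kilobase of combined exon length (the merged length of all annotated exons), Pmp22 was highest at 472 ± 129 CPM per kb, followed by Mbp at 247 ± 87.3, Cnp at 180 ± 35.2 and Mal at 126 ± 32.7 CPM per kb (SD, n = 6). Pmp2 at 25.2 ± 7.91 and Prx at 17.3 ± 6.23 CPM per kb formed a middle pair, and Mag at 1.73 ± 1.09 and Cldn19 at 1.36 ± 0.396 CPM per kb were lowest. Among 14998 genes kept by the filter on low counts, 0.300% stood above Pmp22, 2.63% above Mal, 26.3% above Prx and 83.1% above Cldn19 on this scale, whose median over those genes was 7.20 CPM per kb. Together the 8 genes took 0.398% ± 0.108 of all counts (SD, n = 6), and 42.4% ± 5.23 of that sum was Mbp.

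**Figure D1:**
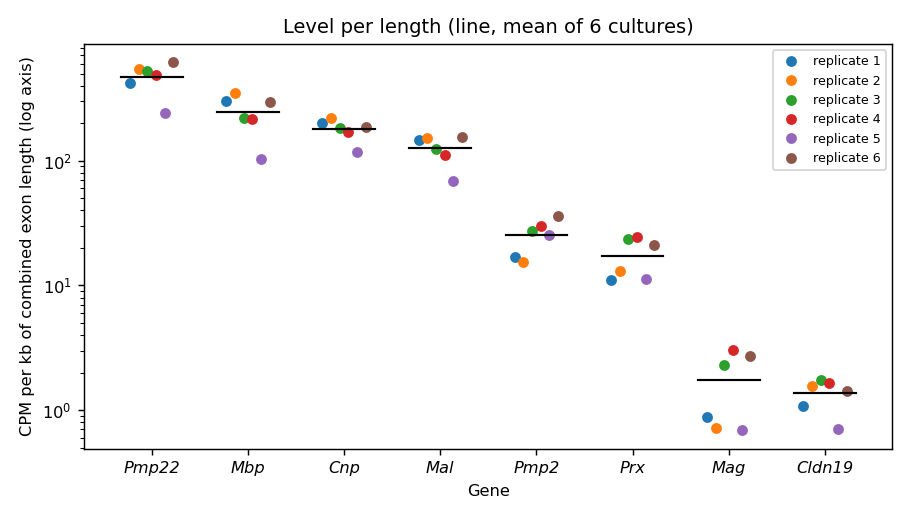
Level of the 8 genes in CPM per kb of combined exon length on a log axis, with 1 point per replicate culture and a line at the mean of 6. Pmp22, Mbp, Cnp and Mal lie at 68.7 CPM per kb or more in every culture, Pmp2 and Prx between 10.99 and 35.96, and Mag and Cldn19 at 3.05 or less.

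The order was tested within libraries, over all 28 pairs of genes, by flipping the signs of the differences in log2(CPM per kb + 0.1) in every way (exact permutation, two-sided). Of the 28 pairs, 26 differed in the same direction in all 6 libraries and passed after Benjamini-Hochberg adjustment (exact permutation p = 0.0312, the smallest that 6 libraries can give, adjusted p = 0.0337). The order itself was read from the same libraries. Among neighbours in it, Pmp22 exceeded Mbp by 0.98 ± 0.326, Cnp exceeded Mal by 0.54 ± 0.172, Mal exceeded Pmp2 by 2.33 ± 0.723, Pmp2 exceeded Prx by 0.55 ± 0.372 and Prx exceeded Mag by 3.41 ± 0.457 (log2 difference, SD, n = 6).

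The 2 remaining neighbour pairs did not pass. Mbp lay above Cnp in 5 of 6 libraries, by 0.38 ± 0.333 on the log2 scale (SD, n = 6, exact permutation p = 0.0625, adjusted p = 0.0648), with the reverse order in replicate 5. Mag lay above Cldn19 in 3 of 6 libraries, by 0.14 ± 0.733 (SD, n = 6, exact permutation p = 0.719, adjusted p = 0.719).

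How Mbp stands to its neighbours depends on the lengths that the genes are divided by. Its locus also carries the long Golli transcripts, which begin far upstream, and its combined exon length of 6974 bases compares with a median of 1934.5 bases over 14 complete protein-coding transcripts in GENCODE M21. Each gene was then divided by its own median transcript length, a choice made after seeing the data. This also shortened Pmp22, from 2458 to 1266.5 bases, and Cnp, from 3375 to 2357 bases. Mbp reached 891 CPM per kb against 916 CPM per kb for Pmp22. Their difference of 0.08 on the log2 scale no longer passed (exact permutation, adjusted p = 0.562). The difference between Mbp and Cnp then passed, at 1.71 (exact permutation, adjusted p = 0.0337). The count table gives 1 value per gene, so the Golli and classic transcripts were not separated.

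Mbp and Pmp22 are structural proteins of compact myelin: the first binds the cytoplasmic faces of adjoining membrane layers, and the second is a four-span membrane glycoprotein whose gene dosage underlies inherited neuropathies. Mbp (GeneID 17196, chromosome 18, 82475091 to 82585637, plus strand, GRCm38.p6) was counted at 2090, 2442, 1534, 1508, 716 and 2049 CPM in replicates 1 to 6, or 1723 ± 609 CPM (SD, n = 6). Pmp22 (GeneID 18858, chromosome 11, 63128982 to 63159547, plus strand) was counted at 1036, 1344, 1280, 1190, 599 and 1512 CPM, or 1160 ± 317 CPM (SD, n = 6). Both were lowest in replicate 5, where Mbp stood 3.41-fold and Pmp22 2.53-fold under their highest libraries. The highest library was replicate 2 for Mbp and replicate 6 for Pmp22. By CPM alone, Mbp was the 28th and Pmp22 the 62nd most counted gene of the table.

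Mal and Cnp serve the membrane and its cytoplasm. Mal encodes a four-span proteolipid of lipid-rich membrane domains that takes part in protein sorting, and Cnp encodes a cyclic nucleotide phosphodiesterase that keeps cytoplasmic channels of myelin open. Mal (GeneID 17153, chromosome 2, 127633226 to 127656695, minus strand) was counted at 405, 421, 343, 312, 191 and 430 CPM in replicates 1 to 6, or 350 ± 90.8 CPM (SD, n = 6). Cnp (GeneID 12799, chromosome 11, 100574909 to 100591875, plus strand) was counted at 683, 748, 621, 570, 400 and 625 CPM, or 608 ± 119 CPM (SD, n = 6). For both genes replicate 5 was lowest and replicate 4 next lowest. The span of Cnp overlaps 9058 bases of Dnajc7 on the opposite strand, a gene at 136 ± 7.36 CPM (SD, n = 6), and Cnp had fractional counts in 5 libraries. The strand setting of the counting is not given in the sources used here, so reads of the shared part cannot be assigned.

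Prx, Mag and Pmp2 had another profile. Prx encodes periaxin, a scaffold that links the outer Schwann cell membrane to dystroglycan through Drp2, Mag encodes an adhesion molecule on the inner membrane facing the axon, and Pmp2 encodes a fatty acid binding protein of compact myelin. Prx (GeneID 19153, chromosome 7, 27499305 to 27520041, plus strand) was counted at 58.0, 68.7, 124, 128, 59.6 and 110 CPM in replicates 1 to 6, or 91.4 ± 32.9 CPM (SD, n = 6). Mag (GeneID 17136, chromosome 7, 30899175 to 30914922, minus strand) was counted at 2.39, 1.96, 6.28, 8.27, 1.86 and 7.41 CPM, or 4.70 ± 2.95 CPM (SD, n = 6). Pmp2 (GeneID 18857, chromosome 3, 10179851 to 10183885, minus strand) was counted at 22.9, 20.9, 37.4, 41.2, 34.7 and 49.1 CPM, or 34.4 ± 10.8 CPM (SD, n = 6).

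For each of these 3 genes the highest libraries were replicates 3, 4 and 6, and every one of them lay above replicates 1, 2 and 5. This arrangement was noticed in the data, gets no test, and was found for 6.87% of the 14998 genes kept. Replicates 1 and 2, which held the lowest Pmp2 and low Prx and Mag, were among the 3 highest libraries for Mbp, Mal and Cnp. Mag rested on 39 to 166 counts per library: its 1.86 CPM in replicate 5 had an exact Clopper-Pearson 95% interval from 1.32 to 2.55 CPM, and its 8.27 CPM in replicate 4 one from 7.06 to 9.63 CPM. For Pmp2 the interval was 34.9 to 40.1 CPM in replicate 3 and 32.2 to 37.3 CPM in replicate 5. These overlap, so counting error alone leaves the order of those libraries open for Pmp2. These intervals cover counting error only, and amplified reads are not independent molecules.

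Cldn19, a claudin of the tight junctions between Schwann cell membrane layers (GeneID 242653, chromosome 4, 119255441 to 119262438, plus strand), was counted at 4.57, 6.65, 7.43, 6.98, 3.01 and 6.00 CPM in replicates 1 to 6. Its mean was 5.77 ± 1.68 CPM (SD, n = 6). Replicates 5 and 1 were lowest and replicate 3 highest, so its profile matched neither of the others in full. The antisense transcript Gm12927 over its start had a mean of 0 CPM.

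**Figure D2:**
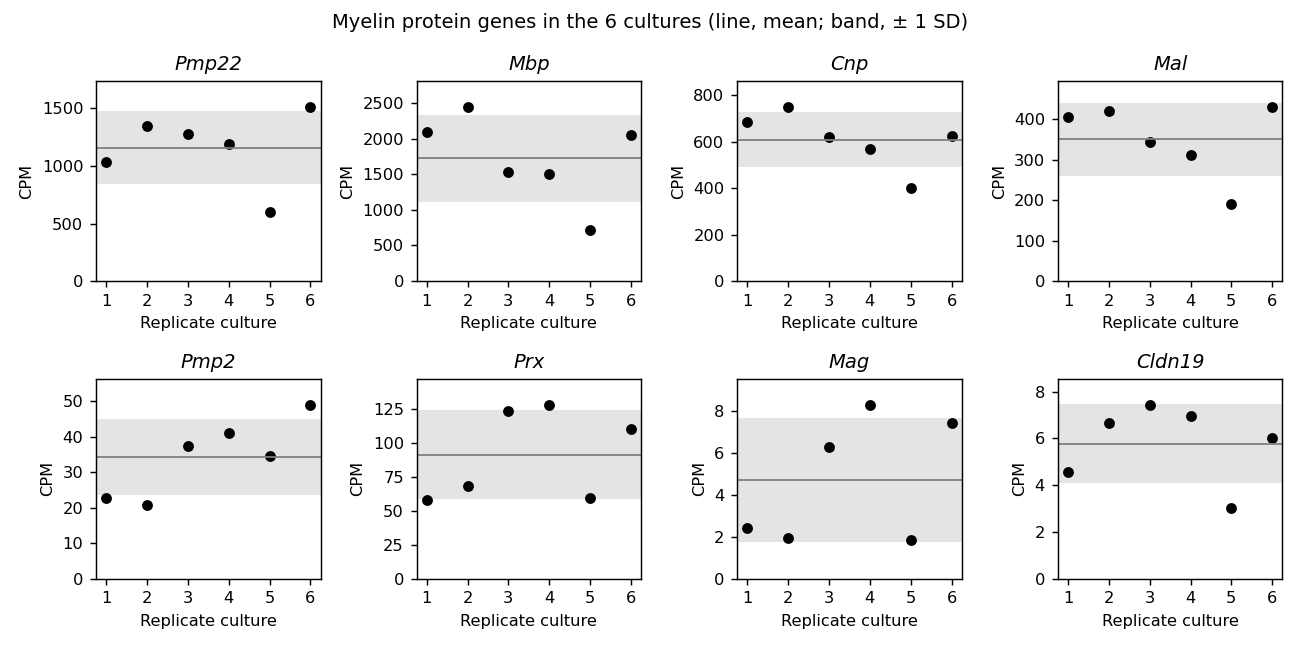
CPM of each gene in the 6 replicate cultures, on linear axes that start at 0, with the mean as a line and ± 1 SD as a band. Mbp, Pmp22, Mal, Cnp, Mag and Cldn19 are lowest in replicate 5. Prx, Mag and Pmp2 are highest in replicates 3, 4 and 6.

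Promoters are shown for 2 genes of each profile, so that their letters can be compared. RefSeq promoter sequence of GRCm38.p6 was listed for 6 of the 8 genes, as 12 start sites. Each sequence is the 250 bases before the most upstream listed start, written 5′ to 3′ on the gene's strand. Capitals mark matches on either strand to ACAAAG or ACAATG, core letters bound by SOX factors, or to GCGNGGGCG or GTGGGNG, letters of sites bound by EGR factors. Both are families of myelin regulators.
Mag, chr7:30914923-30915172, minus strand: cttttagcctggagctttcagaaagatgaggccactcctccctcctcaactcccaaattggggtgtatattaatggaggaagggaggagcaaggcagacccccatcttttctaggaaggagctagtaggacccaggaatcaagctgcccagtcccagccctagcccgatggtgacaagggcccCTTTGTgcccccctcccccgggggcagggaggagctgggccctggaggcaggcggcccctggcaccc
Prx, chr7:27499074-27499323, plus strand: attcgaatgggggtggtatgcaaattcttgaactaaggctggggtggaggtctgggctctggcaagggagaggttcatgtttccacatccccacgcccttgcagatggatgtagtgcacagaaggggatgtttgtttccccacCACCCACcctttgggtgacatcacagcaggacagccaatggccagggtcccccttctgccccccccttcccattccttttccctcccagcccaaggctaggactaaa
Mal, chr2:127656696-127656945, minus strand: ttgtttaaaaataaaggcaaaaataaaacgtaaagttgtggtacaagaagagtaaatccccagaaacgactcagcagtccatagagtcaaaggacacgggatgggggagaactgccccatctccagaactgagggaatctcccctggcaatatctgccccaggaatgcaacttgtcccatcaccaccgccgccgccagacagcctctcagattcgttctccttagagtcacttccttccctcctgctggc
Cnp, chr11:100574689-100574938, plus strand: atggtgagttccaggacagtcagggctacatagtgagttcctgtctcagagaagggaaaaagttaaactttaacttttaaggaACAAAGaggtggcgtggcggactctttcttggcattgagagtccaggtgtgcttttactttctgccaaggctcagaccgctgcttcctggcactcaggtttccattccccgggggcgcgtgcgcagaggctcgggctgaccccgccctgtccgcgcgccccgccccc

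The Mag sequence held 1 match to ACAAAG on the minus strand of the sequence shown, and the Cnp sequence held 1 on its plus strand. The Prx sequence held 1 match to GTGGGNG, and the Mal sequence held 0 matches to the 4 motifs. Mag had further listed starts: the window at 30914864 to 30915113 held ACAAAG and also GTGGGNG, and that at 30914322 to 30914571 held 0 matches. Over all 32851 listed promoters, 16.5% held ACAAAG, 10.7% ACAATG, 4.70% GCGNGGGCG and 28.1% GTGGGNG in the same window. ACAAAG was thus found for 1 gene of each profile, and a match in the letters is not a bound site. GC content was 61.2% for Mag, 56.4% for Prx, 50% for Mal and 57.2% for Cnp, against a median of 52.4% over all promoters. Pmp22 had 4 listed starts, and GC content of the windows before them ran from 48.8% at the most upstream to 73.6% at the most downstream. Counts per gene do not say which start was used.

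The spread between cultures was tested on the whole table. For each gene a chi-square statistic compared its counts in the 6 libraries with those expected from TMM-scaled library sizes, with Benjamini-Hochberg adjustment over 14998 genes, and all 8 genes passed at an adjusted p under 0.05. The same test called 76.3% of all genes tested, so a call was the common case and is not particular to these 8. The weakest call was Cldn19 (chi-square 51.4, adjusted p = 1.97e-09) and the strongest Mbp (chi-square 24561). Mag, with a lower mean CPM than Cldn19, had a chi-square of 194.

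Against genes of like abundance no gene passed. The edgeR quasi-likelihood fit called 0 of the 8 genes and 0% of all genes beyond the trend at an adjusted p under 0.05, and 5.39% of all genes at an unadjusted p under 0.05. The ratio of quasi-dispersion to trend was 23.5 for Prx (unadjusted p = 0.0231, adjusted p = 0.901 by edgeR), 14.9 for Mag (unadjusted p = 0.0398, adjusted p = 0.907 by edgeR) and 12.6 for Pmp2 (unadjusted p = 0.0484, adjusted p = 0.918 by edgeR). It was 9.76 for Mal, 8.05 for Mbp, 5.67 for Pmp22, 3.91 for Cnp and 3.85 for Cldn19, each with an unadjusted p above that of Pmp2. The fit had little power on these libraries: the mural marker Rgs5 had a ratio of 136 and still an adjusted p of 0.844 by edgeR. The 0 calls therefore do not show that the 8 genes vary no more than genes of like abundance. As a description, the SD of log2(TMM-scaled CPM + 0.5) ran from 0.33 for Cnp to 0.88 for Mag with a median of 0.47 over the 8 genes, and its median over the 14998 genes was 0.16.

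Relations between the genes were computed for the 28 pairs across the 6 libraries, on log2(TMM-scaled CPM + 0.5). For Mbp and Cnp, r (Pearson) was 0.98 (exact permutation p = 0.00139, adjusted p = 0.0389), rho (Spearman) was 1 (exact permutation p = 0.00278, adjusted p = 0.0778), and r was 0.84 once replicates 2 and 5 were left out, which lay farthest from the median Mbp level. This was the single pair of 28 to pass, and rho already had the smallest p that 6 libraries can give it. Relative to the glial lineage sum r was 0.93 and did not pass (exact permutation, adjusted p = 0.194). Without 1 library at a time r was 0.92 to 0.99 and did not pass. With 5 libraries the smallest exact permutation p is 0.00833, or 0.233 when multiplied by the 28 pairs, so these losses say nothing about stability. Mbp and Mal had r = 0.99 (exact permutation p = 0.00972, adjusted p = 0.0907) and rho = 0.83 (exact permutation p = 0.0583, adjusted p = 0.327), with r = 0.96 without replicates 2 and 5. The 2 pairs share replicate 5 as their lowest point.

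Prx and Mag had r = 0.96 (exact permutation p = 0.0528, adjusted p = 0.211) and rho = 0.77 (exact permutation p = 0.103, adjusted p = 0.411), with r = 0.97 without replicates 1 and 5. Mag and Pmp2 had r = 0.79 (exact permutation p = 0.0764, adjusted p = 0.214) and rho = 0.77 (exact permutation p = 0.103, adjusted p = 0.411), with r = 0.69 without replicates 1 and 2. Pmp2 and Prx had r = 0.72 (exact permutation p = 0.157, adjusted p = 0.314) and rho = 0.66 (exact permutation p = 0.175, adjusted p = 0.613), with r = 0.53 without replicates 1 and 2. Between the 2 profiles, Mbp and Prx had r = 0.15 (exact permutation p = 0.858, adjusted p = 0.920) and rho = -0.31 (exact permutation p = 0.564, adjusted p = 0.831), and r was -0.72 without replicates 2 and 5. Pmp22 had r = 0.59 with Prx (exact permutation p = 0.181, adjusted p = 0.337) and r = 0.56 with Mag (exact permutation p = 0.228, adjusted p = 0.375). With Cldn19 it had r = 0.90 (exact permutation p = 0.0389, adjusted p = 0.211) and rho = 0.49 (exact permutation p = 0.356, adjusted p = 0.711). That r was 0.80 without replicates 5 and 6, and 0.47 without replicate 5. Pmp22 and Mal had r = 0.90 (exact permutation p = 0.0403, adjusted p = 0.211) and rho = 0.83 (exact permutation p = 0.0583, adjusted p = 0.327). Without replicates 5 and 6 the r of Pmp22 with Mal was 0.12. Pmp22 and Mbp had r = 0.87 (exact permutation p = 0.0486, adjusted p = 0.211) and rho = 0.54 (exact permutation p = 0.297, adjusted p = 0.711). Their r fell to 0.20 without replicates 5 and 6, so this relation rests on those libraries. The labels give no batch of culture or sequencing, so within-batch values cannot be given.

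**Figure D3:**
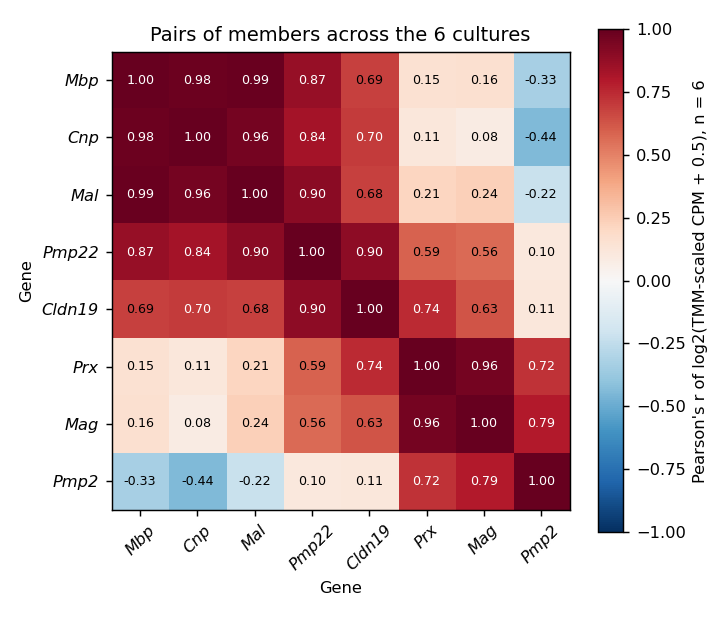
Pearson's r of log2(TMM-scaled CPM + 0.5) for each pair of genes over 6 cultures, with colour from -1 (blue) to 1 (red) and the gene order set by hand. Mbp, Cnp and Mal share r of at least 0.96, Prx and Mag have 0.96, and Mbp with Prx or Mag lies near 0.16.

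Ratios within a library do not depend on its total. Mag amounted to 0.115%, 0.0802%, 0.409%, 0.549%, 0.260% and 0.362% of the Mbp count in replicates 1 to 6, a 6.84-fold range. Prx amounted to 2.77%, 2.81%, 8.07%, 8.50%, 8.33% and 5.39% of Mbp, a 3.07-fold range. Mal kept closer to Mbp, at 17.2% to 26.7% of its count. Replicates 1 and 2 had the lowest ratios to Mbp for Prx, Mag and Pmp2.

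Set against the summed counts of the 6 glial lineage genes in the same library, the members differed in how their spread changed. Cnp was 21.8%, 22.5%, 20.4%, 21.3%, 17.4% and 20.4% of that sum in replicates 1 to 6, and its coefficient of variation was 8.57% on this scale against 19.5% in CPM. The same coefficient went from 25.9% to 16.6% for Mal, from 27.4% to 21.3% for Pmp22, from 35.3% to 26.6% for Mbp and from 29.1% to 26.3% for Cldn19. For Prx it was 36.0% in CPM and 37.2% against the glial sum, for Pmp2 31.4% and 35.5%, and for Mag 62.8% and 64.4%. In replicate 5 Mbp was 31.2% of the glial sum, against 50.3% to 73.3% in the other libraries, so Mbp was lower there by more than the lineage genes were as a group.

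**Figure D4:**
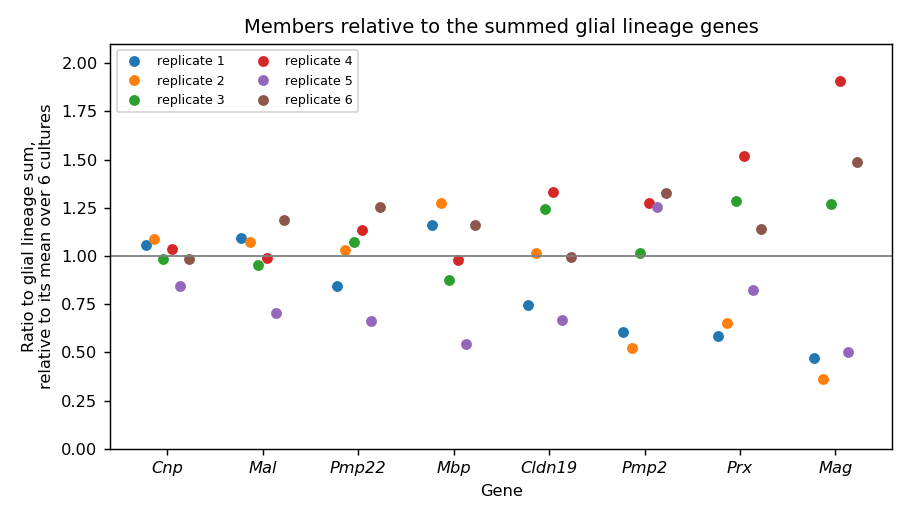
Count of each gene relative to the summed count of 6 glial lineage genes in the same library, divided by its mean over the 6 cultures, with 1 coloured point per culture. Cnp stays closest to 1, replicate 5 is lowest for Cnp, Mal, Pmp22, Mbp and Cldn19, and replicates 1 and 2 are lowest for Pmp2 and Prx.

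Markers of other cells moved between the same libraries. Replicate 5, lowest for 6 of the 8 genes where 26.2% of all genes kept were lowest there, had the highest fibroblast sum: the 6 markers ran at 3338, 6062, 4429, 7446, 13967 and 4799 CPM in replicates 1 to 6, and 5 of 6 were highest in replicate 5. The 8 macrophage markers summed to 15.6, 28.6, 117, 135, 163 and 41.9 CPM, with 6 of 8 highest in replicate 5, and the 5 endothelial markers to 6.44, 16.9, 15.8, 30.4, 102 and 18.6 CPM, with all 5 highest there. Of all genes kept, 29.2% were highest in replicate 5. The 6 mural markers summed to 235 to 707 CPM. The 8 neuron markers summed to 1763, 1184, 2148, 1482, 989 and 1625 CPM, with 6 of 8 lowest in replicate 5. The part of these cells in the differences between cultures was not tested. Without replicate 5 the mean of Mbp was 1925 CPM and that of Pmp22 1272 CPM. Without it r was 0.94 for Prx with Mag, 0.94 for Mbp with Mal and 0.92 for Mbp with Cnp. Other pairs changed more: r went from 0.87 to 0.29 for Pmp22 with Mbp and from 0.84 to 0.10 for Pmp22 with Cnp. For Mbp with Cldn19 it went from 0.69 to -0.43.

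**Figure D5:**
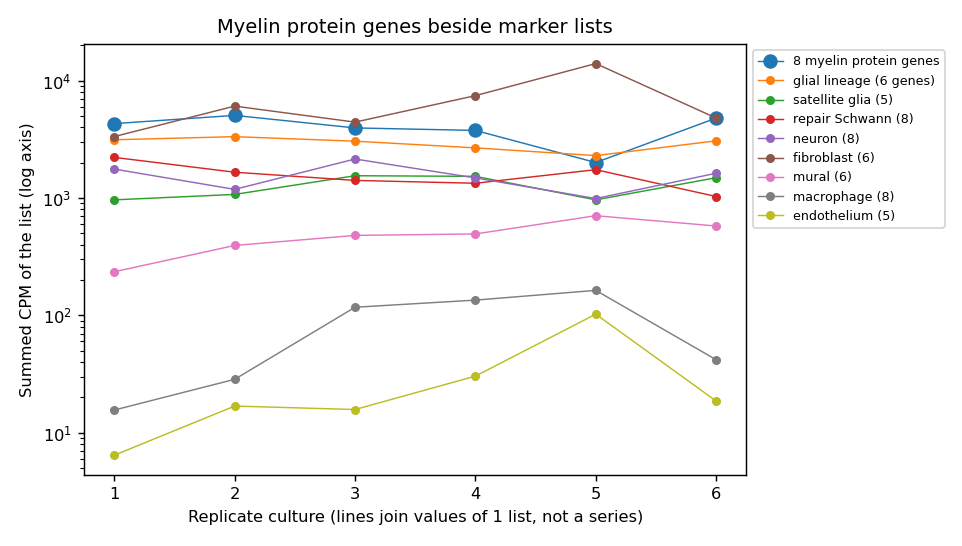
Summed CPM of the 8 myelin protein genes and of 8 marker lists in the 6 cultures, on a log axis. In replicate 5 the myelin protein sum is lowest, at 2005 CPM, and the fibroblast sum highest, at 13967 CPM.

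The 5 satellite glia markers summed to 964, 1073, 1548, 1529, 964 and 1489 CPM in replicates 1 to 6, with replicates 3, 4 and 6 highest. Apoe and Kcnj10, a potassium channel gene, made up most of this sum and were the genes of the list with that arrangement. Apoe, a lipid carrier of satellite glia that macrophages and other cells also express, was counted at 660, 700, 1054, 1096, 633 and 961 CPM. Fabp7, a fatty acid binding protein, was highest in replicate 5, at 53.8 CPM, as was Slc1a3, a glutamate transporter with a mean of 2.04 ± 2.39 CPM (SD, n = 6). Glul, glutamine synthetase, was highest in replicates 3 and 1 and lowest in replicate 5. The 8 repair Schwann markers summed to 2218, 1658, 1412, 1335, 1743 and 1030 CPM, with replicate 1 highest and replicate 6 lowest. Ngfr, at 1036 ± 312 CPM (SD, n = 6), made up most of this sum. Ngfr, Gdnf, Runx2 and Btc shared its highest and lowest library. Lif, Artn and Olig1 were instead highest in replicate 5 and Shh in replicate 4, and Lif was lowest in replicate 1. The part of either list in the profiles of the members was not tested.

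Other proteins of peripheral myelin and its edges were described from a list of 16 genes, whose median level was 60.3 CPM per kb against 75.6 for the 8 members and 7.20 for all genes kept. Of the 16, 15 reached 1 CPM in all libraries, 15 passed the filter, the same number varied beyond counting noise, and 10 were lowest in replicate 5. For this list and those that follow, 76.3% of all genes kept varied beyond counting noise and 26.2% were lowest in replicate 5. Cadm4, an adhesion molecule of the inner Schwann cell membrane, stood at 1640 ± 347 CPM, the tetraspanin Cd9 at 662 ± 125 CPM and the chaperone Cryab at 759 ± 82.6 CPM (SD, n = 6). Drp2, the partner of periaxin, stood at 5.00 ± 2.11 CPM, and the gap junction gene Gjb1 at 1.70 ± 0.499 CPM (SD, n = 6). Gldn, which encodes the nodal protein gliomedin, was at 419 ± 108 CPM and was highest in replicate 5.

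Of 10 transcription factors that promote myelination, all 10 passed the filter and varied beyond counting noise (76.3% of all genes kept did), 5 were lowest in replicate 5, and 9 reached 1 CPM in every library. Sox10, the lineage factor that activates several of the 8 genes, was at 652 ± 87.5 CPM, and Egr2, the main activator of peripheral myelin genes, at 107 ± 26.9 CPM (SD, n = 6). Egr2 was counted at 73.2, 99.1, 110, 126, 147 and 85.6 CPM in replicates 1 to 6, lowest in replicate 1 and highest in replicate 5, where Mbp and Pmp22 were lowest. The fibroblast, macrophage and endothelial marker sums were also highest in replicate 5, and which cells gave the Egr2 counts was not tested. Pou3f1, a factor of the promyelinating stage, was at 2.37 ± 1.01 CPM, and the related Pou3f2 at 33.7 ± 3.31 CPM (SD, n = 6).

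Of 11 signals and receptors of myelination, all 11 were above 1 CPM in each library and varied beyond counting noise, against 76.3% of all genes kept, and 8 were lowest in replicate 5, against 26.2%. Lgi4, a secreted glial factor, was at 1163 ± 242 CPM, its receptor Adam22 at 26.9 ± 6.10 CPM, and the adhesion receptor Adgrg6 at 219 ± 33.2 CPM (SD, n = 6). Dag1, which encodes the dystroglycan bound by the periaxin complex, was at 2250 ± 285 CPM, and Nrg1, the axonal signal for myelination, at 9.83 ± 2.32 CPM (SD, n = 6).

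Of 7 negative regulators of myelination, 6 passed the filter and all of these varied beyond counting noise. Jun, the injury factor that opposes the myelin programme, was at 616 ± 80.2 CPM, Sox2 at 144 ± 27.6 CPM and Id2 at 104 ± 9.98 CPM (SD, n = 6). Egr1 was lowest in replicate 1, at 12.8 CPM, and highest in replicate 5, at 271 CPM, and Pax3 was at 0.512 ± 0.312 CPM (SD, n = 6). A single gene of the 7, Jun, was lowest in replicate 5.

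The 12 genes of myelin lipid synthesis all reached 1 CPM and varied beyond counting noise, and 11 of them were lowest in replicate 5. Their median SD of log2(TMM-scaled CPM + 0.5) was 0.24. Scd2, a fatty acid desaturase, was at 4968 ± 994 CPM with fractional counts in all 6 libraries, and the cholesterol synthesis gene Hmgcs1 at 541 ± 109 CPM (SD, n = 6). The enzymes of myelin galactolipids were lower: Ugt8a was at 8.97 ± 1.55 CPM and Fa2h at 2.99 ± 1.23 CPM, while the sulfotransferase Gal3st1 was at 52.0 ± 13.5 CPM (SD, n = 6).

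Genes with the most similar profile were listed for each member by Pearson's r over the 6 libraries, among 11933 genes with a mean of at least 5 CPM. With 6 points many genes reach a high r, so these are descriptions. An r of at least 0.9 was reached by 580 genes with Mbp, 598 with Mal, 535 with Cnp and 434 with Pmp22, but by 80 genes with Prx, 78 with Pmp2 and 64 with Mag. The closest 3 genes were Bag5, Pkig and Epb41l4b for Mbp (r from 0.996 to 0.997), Dhh, Aldh1l1 and Hadh for Pmp22 (r from 0.995 to 0.998) and Hdac8, Slc12a9 and Nwd1 for Cnp (r from 0.995 to 0.998). Adamts20 and Pkig were among the closest for Mal (r = 0.994 each).

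For Prx the closest 3 were Apoe (r = 0.995), Wsb1 and Ndnf (r = 0.98 each), for Pmp2 Shld3 (r = 0.99), Uap1 (r = 0.98) and Rel (r = 0.97), and for Cldn19 Vapb (r = 0.996), Clstn1 (r = 0.995) and Clcn2 (r = 0.993). Rab32 (r = 0.99) and Rnf7 (r = 0.98) were among the closest for Mag. Dhh, the hedgehog ligand that Schwann cells secrete, was counted at 258, 298, 300, 282, 198 and 328 CPM in replicates 1 to 6, with the same highest and lowest library as Pmp22. For the mean of the 8 members the 5 closest genes were Becn1, Zfp641, Sema3c, Gm42048 and Sostdc1, each with r = 0.99.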

How the data were processed

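Poly-A RNA was sequenced from 6 replicate cultures in stranded libraries (input 500 ng, amplified over 15 PCR cycles), per the labels' protocols. The authors deposited 1 table of estimated counts per gene, with no scaling and with 13.4% to 14.7% of cells per library not whole, which affects genes sharing reads. The submitters' processing notes name STAR 2.7.2b, featureCounts 1.6.4, cutadapt 2.5 and the build GRCm38.p6, without options; handling of multi-matching reads and strand is not given in the sources used here. The deposited combined exon length is in bases, a unit of its own.

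Replicate numbers come from the titles, and the table held 0 other per-sample columns. CPM used library totals. Under R 4.3.3, rounded counts went into edgeR 4.0.16 (filterByExpr, TMM) and, for size factors, DESeq2 1.42.0. Pseudocounts were 0.1 for levels per kb and 0.5 for relations. The chi-square and edgeR tests were checked on simulated counts. Those for edgeR had the same dispersion for every gene, unlike these data, so the check does not show its power here. Named genes were the 8 members, their closest 3 genes by r, the 5 closest to their mean, and genes of the fixed lists; some genes under this rule are not reported here. Members and lists were chosen with earlier results of these data known. Gene coordinates are 1-based; all 45703 identifiers matched RefSeq GRCm38.p6. GENCODE M21, on the same assembly, gave transcript lengths only. Melanocyte markers were also listed: 3 of 4 never exceeded 3 counts.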

Additional observations from a re-analysis of the deposited data

Results flagged for a closer look

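Across 25 measures (the 8 members and the summed CPM of 17 lists), the distance of the most extreme library from its neighbour, as a share of the whole range, was set against Dixon's critical value of 0.625; chance alone would pass 1.25 of them. The sum of the 16 other myelin protein genes passed with a ratio of 0.757, at 5575 CPM in replicate 5 and 7540 to 8170 CPM in the other libraries. The sum of the 5 endothelial markers passed with 0.751, at 102 CPM in replicate 5. None of the 8 members passed: Mal was nearest, with a ratio of 0.506 for its low value in replicate 5, and the sum over the 8 had 0.577.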

How the results depend on the processing

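No paired analysis was possible because all 6 libraries form 1 group. TMM, DESeq2 size factors and the glial lineage sum moved the mean CPM of each of the 8 members by less than its SD between cultures. Leaving out 1 of 6 libraries can only move a mean by less than that SD, so the same outcome there says nothing about stability. The order of the members depends on length: with CPM alone 2 of 8 kept their place, Pmp22 minus Mbp became -0.53, Pmp2 minus Prx -1.39 and Mag minus Cldn19 -0.50 (log2), and with the median GENCODE transcript Mag minus Cldn19 became -0.40. Leaving out 1 library each gave -0.018 to 0.37 for that last difference. Whichever library was left out, 0 of 28 pairs passed for level, since 5 libraries cannot give an exact sign-flip p under 0.0625; this says nothing about stability. The number of correlated pairs, 1, was 0 with Spearman's rho, 0 relative to the glial sum and 0 without each library in turn, while r for Mbp with Cnp was 0.93 relative to the glial sum and 0.92 to 0.99 without each library; with 5 libraries a single pair of 28 cannot pass, so those counts say nothing about stability either. With no filter on low counts 13488 of 26854 genes tested (50.2%) varied beyond counting noise, against 11444 of 14998 (76.3%), and without single libraries 10098 to 11253 (66.8% to 74.8%). Genes beyond the trend stayed at 0 in the edgeR fits run, with 799 to 1468 at an unadjusted p under 0.05. Because this test had little power, the 0 says nothing about stability. Depth limits Mag and Cldn19, the members with the fewest counts.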

Other observations

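Relatives of the members were present at unlike levels. Of the PMP22 family, Emp1 stood at 289 CPM per kb, Emp3 at 235 and Emp2 at 173 CPM per kb, against 472 for Pmp22 itself, and Lim2, a lens protein, had 0 counts in all 6 libraries, which allows up to 0.149 CPM in the smallest library. Among fatty acid binding proteins, Fabp5, fractional in all 6 libraries, stood at 162 CPM per kb and Fabp7 at 57.9, above Pmp2 at 25.2 CPM per kb. Fabp3 and Fabp4 stood at 2.39 and 1.32 CPM per kb. Emp1 varied little between cultures, with an SD of log2(TMM-scaled CPM + 0.5) of 0.12 against 0.48 for Pmp22.

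Cldn11, the claudin of oligodendrocyte myelin that is also found in other barrier cells, was counted at 76.8, 57.9, 10.1, 8.72, 3.44 and 13.4 CPM in replicates 1 to 6. Its level in replicates 1 and 2 lay above the other 4, while Mog, Mobp and Opalin had at most 1 count in any library, and Cldn19 was below 8 CPM throughout. Cldn1, a claudin of perineurial and epithelial barriers, stood at 17.1 ± 1.28 CPM (SD, n = 6).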
